A study of Citrus x clementina and Citrus japonica with 6 samples.

Results

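Large molecular chaperones and heat shock factors were followed in the fruit of 2 citrus species, kumquat and Clementine mandarin. The members were the gene models whose first KEGG orthology name in the deposited annotation was a 70 kDa heat shock protein (HSP70), DnaK, HSP90, its bacterial counterpart HtpG, the disaggregase ClpB, the chaperonin GroEL or a heat shock transcription factor (HSF). This rule read names and no expression value, and it found 143 of the 30139 gene models. Of these, 114 carried a chaperone name and 29 an HSF name. By name, 59 models were heat shock 70kDa protein 1/8, the cytosolic class, 12 were protein 5, the BiP class of the endoplasmic reticulum, and 7 were protein 4, the HSP110 class. A further 2 models were DnaK, 7 were HSP90 or HtpG, 8 were GroEL and 19 were ClpB.

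RNA of fruit was sequenced from 3 libraries of each species, with no treatment and from one field site. Each clementine library (Citrus x clementina) pooled 5 stages, and both species shared those of 15, 30 and 45 days after flowering. The later stages were 100 and 180 days in clementine, and in the 5-stage kumquat pools (Citrus japonica) they were 80 and 120 days. For the kumquat libraries the organism and cultivar labels, which were followed, disagree with the stage label, which speaks of Clementine mandarin. The labels say that material came from 3 plants but do not tie plants to libraries, so p-values measure only the spread between these libraries. Species and the age of the later stages differ together and cannot be told apart. A gene that is high at a single stage is diluted in the pool, and fewer cells of a type cannot be told apart from less RNA per cell. Values for both species are given on gene models with clementine identifiers, and the effect of kumquat sequence differences on the values was not tested.

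Chaperones bind unfolded proteins and let them fold, cross membranes or be disassembled. HSP70 proteins hold short exposed stretches in a cycle of ATP binding and hydrolysis driven by J-domain proteins and exchange factors, HSP90 proteins act later on partly folded clients such as kinases and receptors, GroEL encloses proteins in a chamber in plastids and mitochondria, and ClpB pulls proteins out of aggregates together with HSP70. HSFs bind heat shock elements in promoters, and in plants class A factors activate chaperone genes on heat while many class B factors repress them. Many of these genes are also expressed without heat in growing tissue, where they serve the folding of newly made proteins.

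The names were checked against the other annotation of the same models. A Gene Ontology term that fits the name, nucleotide binding for a chaperone or DNA binding for an HSF, was given for 48 of the 143 members, comprising 38 of the 114 chaperones and 10 of the 29 HSFs. Another KEGG name stood behind the chaperone name in 49 chaperones, and in 26 models of the protein 1/8 name this was the leucine-rich repeat protein SHOC2. The best protein match was a hypothetical protein for 140 members. The members below are therefore models that carry these names, and whether each encodes a working chaperone or factor cannot be read from the files. Chaperones with the fitting term lay at a median of 100.1 FPKM, fragments per kilobase of model scaled to the library's mapped fragments, and those without it at 6.06 FPKM, over the models tested.

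The summed level of the 143 members was higher in kumquat. It was 5658, 5660 and 5592 FPKM in the clementine libraries and 7578, 7727 and 7496 FPKM in the kumquat libraries. This was 0.802% to 0.814% of all FPKM of a clementine library and 1.06% to 1.10% of a kumquat library, so the species did not overlap. Most of the sum came from a few models. The 20 members with a mean of at least 100 FPKM included 8 of the protein 1/8 name and 5 of the HSP90 family, and 16 members stood among the 1000 most abundant models of the fruit.

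**Figure D1:**
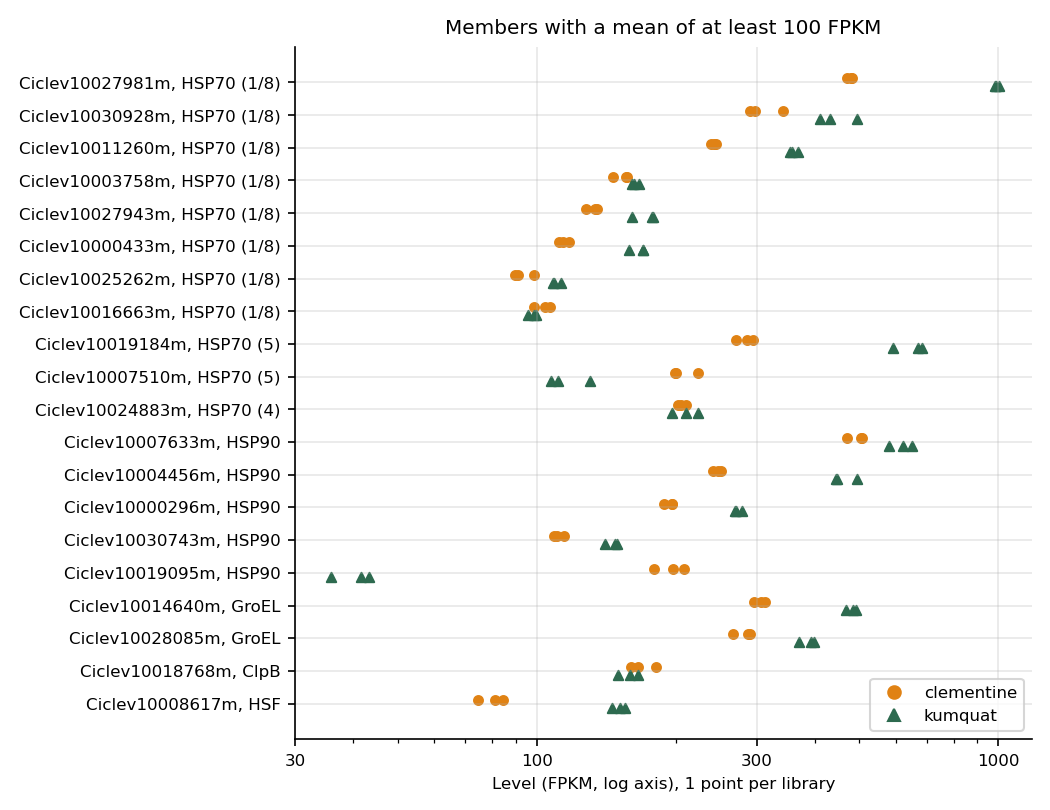
Level of the 20 members with a mean of at least 100 FPKM, 1 point per library, on a log axis of FPKM (circles clementine, triangles kumquat). Kumquat triangles lie right of the clementine circles for most members, and Ciclev10019095m, an HSP90-family model, stands furthest to the left of its clementine points.

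Of the members, 113 reached 1 FPKM in at least 3 libraries and were tested, and the other 30 had means of at most 0.628 FPKM. In limma's moderated test on log2(FPKM + 1), with Benjamini-Hochberg adjustment over all 22050 models tested, 55 members were higher in kumquat, 23 were lower and 35 were not called at an adjusted p under 0.05. Over all models tested, 57.1% were called, 29.9% higher and 27.1% lower, so a call by itself was common in this comparison. Changes of at least 2-fold on this scale were called higher for 30 members and lower for 10, against 12.4% and 12.1% of all models. The libraries of the species did not overlap in 83 members, against 63.9% of all models. The median log2 change was 0.27 over the members and 0.04 over all models. The filter was passed through kumquat alone by 7 members, all called higher, and through clementine alone by 4, all called lower, so these had to differ. Without such models 48 members were higher, 19 lower and 35 not called of 102, against 28.8% higher and 24.8% lower of all models.

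Abundant members were counted apart, although a high mean level does not remove every model that passed the filter through a single species. Of the 67 members with a mean of at least 10 FPKM, 35 were higher, 12 lower and 20 not called, against 34.3% higher and 29.4% lower among all models of that level. The 12 lower calls include that of Ciclev10015130m, which passed the filter through clementine alone. Of the 20 members with at least 100 FPKM, 14 were higher, 2 were lower and 4 were not called, against 34.3% higher and 37.1% lower. Among chaperones tested, those with a nucleotide-binding term gave 20 higher, 4 lower and 8 not called, and those without it gave 23, 14 and 15. Of the latter, 6 of the higher and 3 of the lower calls were of models that passed the filter through one species alone. Chaperones with neither the term nor another KEGG name gave 9 higher, 7 lower and 9 not called of 25 tested. That is 36% higher and 28% lower, near the 29.9% and 27.1% over all models tested. These splits by term and by name were chosen after the values were seen, and the differences between the classes were not tested.

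**Figure D2:**
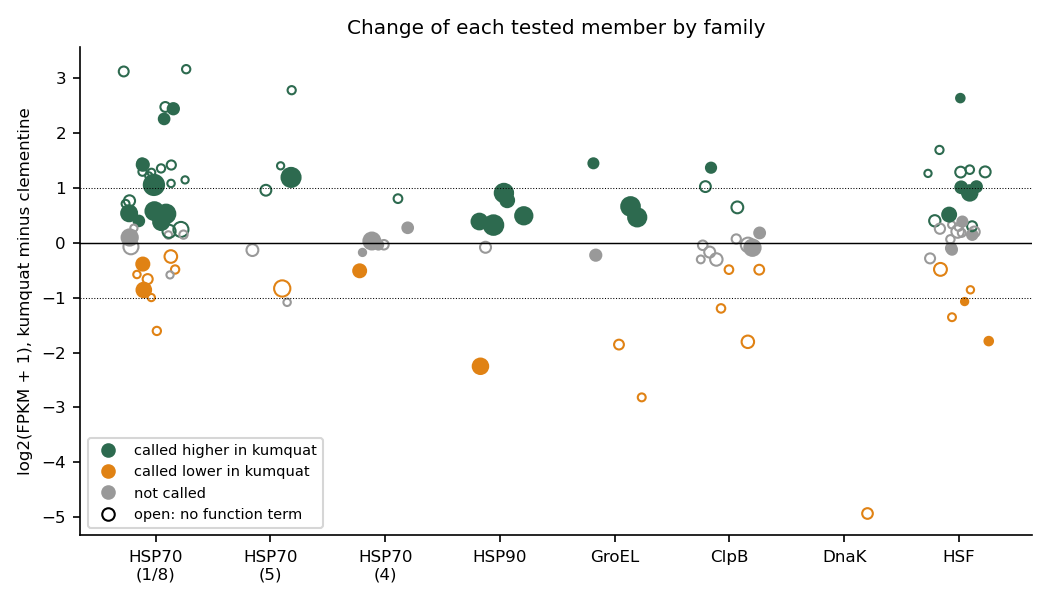
Change of each of the 113 tested members by family, as log2(FPKM + 1) in kumquat minus clementine. Larger points are more abundant models, open points lack a fitting Gene Ontology term, and dotted lines mark 2-fold. The HSP70 models of the protein 1/8 name lie mostly above 0, ClpB models lie on both sides, and the DnaK model is the lowest point at -4.92.

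Models of the protein 1/8 name, the cytosolic HSP70 class that carries general folding, were the largest family and mostly rose. Another KEGG name stood behind this name in 41 of the 59 models, and 12 had the nucleotide-binding term. The models with another name gave 12 higher, 5 lower and 4 not called of 21 tested. Of 59 models 39 were tested, and 25 were higher, 8 lower and 6 not called, with a median log2 change of 0.53. Of these, 3 of the higher calls and 1 of the lower passed the filter through one species alone. Their summed level was 1978 ± 27.0 FPKM in clementine and 2956 ± 64.9 FPKM in kumquat (SD, n = 3 each). The most abundant, Ciclev10027981m, was at 481, 482 and 471 FPKM in clementine and at 987, 1002 and 985 FPKM in kumquat. Every kumquat library thus stood well above every clementine library, and the log2 change was 1.05 (SE 0.0468, limma adjusted p = 2.23e-06). This 1 model made up 24.2% of the family's sum in clementine and 33.5% in kumquat.

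Other abundant models of the protein 1/8 name rose less. Ciclev10030928m had means of 310 and 446 FPKM (log2 change 0.52), and Ciclev10011260m had 242 and 360 FPKM (log2 change 0.57). Ciclev10003758m, at means of 153 and 163 FPKM, was not called, with a log2 difference of 0.09 and a 95% interval from -0.02 to 0.21. The largest fall among those of at least 10 FPKM was that of Ciclev10025114m. It was at 116, 102 and 102 FPKM in clementine and 62.3, 54.9 and 57.6 FPKM in kumquat, without overlap (log2 change -0.86, limma adjusted p = 5.97e-05). The family was therefore not uniform, although its sum was 1.49-fold higher in kumquat.

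The largest relative rises in the protein 1/8 class were in models of low level in clementine. Ciclev10024735m was at 1.73, 1.56 and 0.96 FPKM in clementine and at 21.4, 17.2 and 20.9 FPKM in kumquat (log2 change 3.12, limma adjusted p = 6.21e-06). Ciclev10024736m was listed at 0 in the 3 clementine libraries and at 9.46, 11.1 and 4.62 FPKM in kumquat. Ciclev10019620m went the other way, from 6.34, 6.74 and 7.07 FPKM to 1.09, 1.84 and 1.73 FPKM (log2 change -1.61). All 3 of these models also carry the SHOC2 name and lack the nucleotide-binding term. With the term, Ciclev10028007m rose from a mean of 5.61 to 34.6 FPKM (log2 change 2.44) and Ciclev10033341m from 4.51 to 25.5 FPKM (2.25). The 12 tested models of this class with the term gave 9 higher, 2 lower and 1 not called. The 26 models that also carry the SHOC2 name gave 12 tested, of which 10 were higher, 1 was lower and 1 was not called. Of the 10, 3 passed the filter through kumquat alone and had to be higher, and without them 7 were higher, 1 lower and 1 not called, with a median log2 change of 1.29. SHOC2 is a leucine-rich repeat scaffold of human Ras signalling and no chaperone, so these counts in part describe models whose second name points elsewhere.

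The protein 5 name is that of BiP, the HSP70 of the endoplasmic reticulum that receives proteins as they enter the secretory pathway. Of 12 models 8 were tested, with 5 higher, 1 lower and 2 not called. Of the 5, 3 passed the filter through kumquat alone and had to be higher, which leaves 2 higher, 1 lower and 2 not called. The summed level was 533.7 ± 5.52 FPKM in clementine and 825.5 ± 43.7 FPKM in kumquat (SD, n = 3 each). The most abundant, Ciclev10019184m, was at 270, 294 and 286 FPKM in clementine and at 591, 684 and 669 FPKM in kumquat. The species were far apart, with a log2 change of 1.19 (SE 0.0706, limma adjusted p = 8.49e-06). Ciclev10007510m fell from 224, 199 and 200 FPKM to 131, 111 and 108 FPKM (log2 change -0.83, limma adjusted p = 0.00014). Ciclev10007510m has the Gene Ontology term for endopeptidase activity and further KEGG names that are not chaperones. The share of Ciclev10019184m in the summed level was 53.1% in clementine and 78.4% in kumquat, and that of Ciclev10007510m was 39.0% and 14.2%.

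HSP110-class proteins, of the protein 4 name, exchange the nucleotide on other HSP70 proteins and help in disaggregation. Their summed level hardly differed, at 290.7 ± 9.06 FPKM in clementine and 286.8 ± 14.4 FPKM in kumquat (SD, n = 3 each), and of 7 models tested 1 was higher, 1 lower and 5 not called. Ciclev10024883m, which makes up most of that sum, was at 210, 205 and 202 FPKM in clementine and at 224, 211 and 197 FPKM in kumquat. The libraries overlapped, and the log2 difference was 0.03 with a 95% interval from -0.11 to 0.17 (limma adjusted p = 0.69). Ciclev10004635m was lower, from 50.1, 51.4 and 44.2 FPKM to 30.9, 31.1 and 39.8 FPKM (log2 change -0.51, limma adjusted p = 0.0059). Kumquat replicate 3 lay closer to clementine than the other kumquat libraries. Ciclev10004637m, which has the same protein match, was at means of 13.4 and 16.8 FPKM and was not called. The sum over that match was 62.0 and 50.7 FPKM, a smaller fall (log2 change -0.28).

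The lowest log2 difference of any tested member was that of a model named DnaK, the bacterial form of HSP70 that plants keep in plastids and mitochondria. Ciclev10015130m was at 29.4, 32.6 and 30.4 FPKM in clementine, and in kumquat it was at 0.16 FPKM in replicate 1 and listed at 0 in replicates 2 and 3. The log2 difference on the log2(FPKM + 1) scale was -4.92. Ciclev10015130m passed the filter through clementine alone, so the direction of its difference was fixed by the filter. Its call is therefore no support for the difference. Ciclev10015130m has no nucleotide-binding term, and the other DnaK-named model was too low to test.

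HSP90 proteins mature signalling proteins and other clients, and forms of the cytosol, the endoplasmic reticulum and the plastid are known. Of 7 models, all tested, 5 were higher, 1 was lower and 1 was not called, and the summed level was 1303 ± 44.6 FPKM in clementine and 1631 ± 67.5 FPKM in kumquat (SD, n = 3 each), 1.25-fold higher. The leading model, Ciclev10007633m of the HtpG name, was at 471, 506 and 504 FPKM in clementine and at 579, 649 and 622 FPKM in kumquat (log2 change 0.32, limma adjusted p = 0.00336). Ciclev10004456m, also named HtpG, was at 241, 251 and 247 FPKM in clementine and at 446, 495 and 447 FPKM in kumquat (log2 change 0.90, limma adjusted p = 1.17e-05). Neither model overlapped between species.

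The remaining HtpG-named model, Ciclev10019095m, ran opposite to these. It was at 179, 208 and 198 FPKM in clementine and at 43.2, 41.6 and 35.9 FPKM in kumquat, a log2 change of -2.25 (SE 0.0872, limma adjusted p = 1.19e-06). As shares of the HtpG-named sum, Ciclev10007633m held 52.8% in clementine and 55.1% in kumquat, Ciclev10004456m 26.4% and 41.3%, and Ciclev10019095m 20.8% and 3.60%. Despite that fall, the HtpG-named sum was 1.20-fold higher in kumquat. The models named 90kDa beta, the class of the endoplasmic reticulum, rose for Ciclev10000296m (means of 194 and 273 FPKM, log2 change 0.49), Ciclev10030743m (111 and 146 FPKM, 0.38) and Ciclev10014316m (43.6 and 75.0 FPKM, 0.77), while Ciclev10002360m (18.8 and 17.5 FPKM) was not called. Ciclev10002360m carries further KEGG names that are not chaperones and lacks the nucleotide-binding term.

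**Figure D3:**
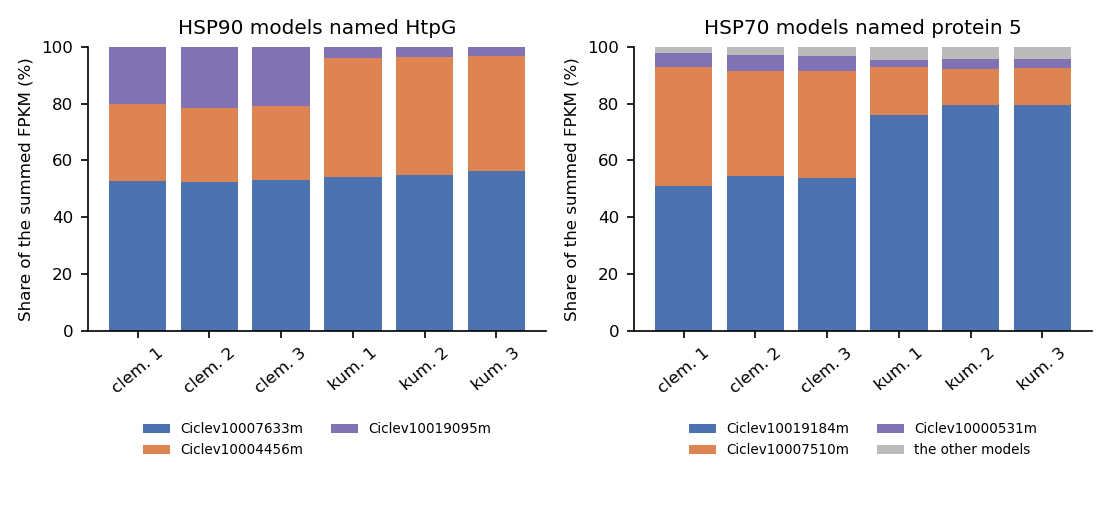
Stacked share, in percent, of each leading model in the summed FPKM of the HtpG-named models (left) and the protein 5 models (right), 1 bar per library. The mean share of Ciclev10019095m was 20.8% in clementine and 3.60% in kumquat, and that of Ciclev10019184m was 53.1% and 78.4%.

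GroEL is the chaperonin of plastids and mitochondria. Its summed level was 637.7 ± 23.6 FPKM in clementine and 911.5 ± 26.8 FPKM in kumquat (SD, n = 3 each), and of 7 models tested 4 were higher, 2 lower and 1 not called. Ciclev10014640m was at 295, 312 and 307 FPKM in clementine and at 469, 492 and 484 FPKM in kumquat (log2 change 0.66, limma adjusted p = 2.62e-05). Ciclev10028085m had means of 282 and 388 FPKM (log2 change 0.46). These 2 models made up nearly all of the sum in both species, at 47.8% and 44.2% in clementine and 52.8% and 42.5% in kumquat.

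The less abundant GroEL-named models moved in both directions. Ciclev10031053m rose from 4.78, 5.76 and 5.88 FPKM to 16.2, 16.4 and 17.1 FPKM (log2 change 1.44). Ciclev10023553m fell from 17.8, 18.3 and 13.4 FPKM to 4.04, 3.58 and 3.78 FPKM (log2 change -1.86). Ciclev10023620m was at 4.07, 6.53 and 8.16 FPKM in clementine and was listed at 0 in the 3 kumquat libraries, so it passed the filter through clementine alone. Both lower models lack the nucleotide-binding term.

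ClpB, the HSP100 disaggregase that gives plants acquired heat tolerance, had calls in both directions and a summed level slightly below clementine's in kumquat. Of 15 models tested 3 were higher, 4 lower and 8 not called, with summed levels of 458.8 ± 26.7 FPKM in clementine and 421.7 ± 19.4 FPKM in kumquat (SD, n = 3 each). The leading model, Ciclev10018768m, was at 181, 165.53 and 160.4 FPKM in clementine and at 166.05, 159 and 150 FPKM in kumquat. The libraries overlapped, with a log2 difference of -0.09 and a 95% interval from -0.25 to 0.06 (limma adjusted p = 0.265). Ciclev10008009m was at 55.6, 55.2 and 53.7 FPKM in clementine and 14.4, 16.2 and 14.4 FPKM in kumquat (log2 change -1.81, limma adjusted p = 1.29e-06). Ciclev10008009m carries another KEGG name besides ClpB and lacks the nucleotide-binding term.

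The called rises in ClpB were in models of lower level. Ciclev10026553m rose from 8.76, 12.2 and 11.2 FPKM to 19.6, 23.4 and 25.04 FPKM (log2 change 1.02). Like Ciclev10008009m, it carries another KEGG name besides ClpB and lacks the nucleotide-binding term. Ciclev10018766m was at 7.20, 5.45 and 6.12 FPKM in clementine and 17.3, 19.4 and 16.3 FPKM in kumquat (log2 change 1.36, limma adjusted p = 8.38e-05). Ciclev10018766m shares its protein match with Ciclev10018768m and other models, and the sum over the 4 models of that match was 176.4 FPKM in both species (adjusted p = 0.994), so the call ends in the sum. How reads were split between models of the same match was not tested.

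**Figure D4:**
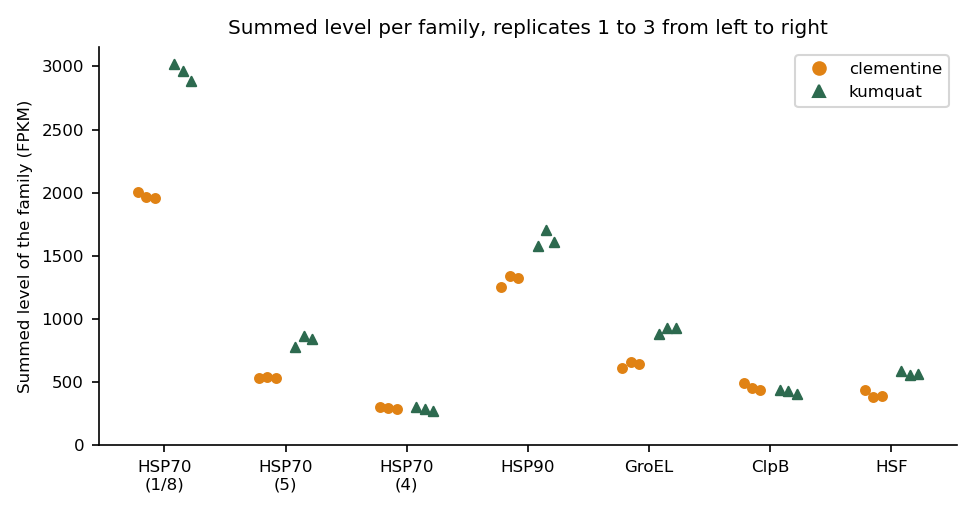
Summed FPKM of each chaperone or HSF family, 1 point per library (circles clementine, triangles kumquat), without the DnaK-named pair. The sums of the protein 1/8 HSP70 class, the protein 5 class, HSP90, GroEL and HSF do not overlap between the species and are higher in kumquat, while those of the protein 4 class and ClpB overlap.

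HSFs bind heat shock elements as trimers and set the level of chaperone genes. All 29 HSF-named models were tested, and 12 were higher, 5 lower and 12 not called, with a median log2 change of 0.29. One species alone carried 1 of the higher and 1 of the lower through the filter. Their summed level was 403.8 ± 30.3 FPKM in clementine and 568.1 ± 13.2 FPKM in kumquat (SD, n = 3 each). The leading model, Ciclev10008617m, was at 84.7, 74.6 and 81.1 FPKM in clementine and at 155, 145 and 152 FPKM in kumquat, with a wide gap between the species (log2 change 0.91, limma adjusted p = 1.72e-05). The sum with Ciclev10008618m, which has the same protein match, was 80.8 and 159.6 FPKM and rose likewise (log2 change 0.98).

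Other HSF-named models changed both ways. Ciclev10026273m had means of 51.2 and 73.3 FPKM (log2 change 0.51), and Ciclev10015472m rose from 18.7, 14.4 and 14.3 FPKM to 37.2, 31.4 and 29.3 FPKM (log2 change 1.01). Ciclev10005403m was lower, from 51.9, 44.5 and 47.9 FPKM to 38.1, 31.3 and 32.8 FPKM (log2 change -0.49, limma adjusted p = 0.00316). Ciclev10001482m fell from 9.04, 6.95 and 8.10 FPKM to 1.57, 1.20 and 2.09 FPKM (log2 change -1.79). None of these 4 models overlapped between the species.

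Ciclev10023045m had the largest HSF-named rise among models of at least 10 FPKM, from 10.02, 11.1 and 8.44 FPKM to 24.5, 25.3 and 26.3 FPKM (log2 change 1.29), but its Gene Ontology terms are iron ion binding and gas transport. The only HSF whose protein match carries a name, Ciclev10006040m, is called heat stress transcription factor B-2b, a class B factor. It had means of 9.73 and 12.2 FPKM and was just called higher (log2 change 0.30, limma adjusted p = 0.0452). The files do not give the class of the other HSFs, so activators and repressors could not be counted apart.

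Models that share a protein match could split reads, which concerned 20 members. Whether such models are separate copies of a gene was not tested. When FPKM was summed over the models of a match, 77 of the 78 called members belonged to a match called in the same direction, and Ciclev10018766m was the exception. For members outside these 20 the sum is the model itself, so their agreement was all but fixed in advance and says nothing about split reads.

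Partners of these chaperones were counted in the same fit. Few of their calls were of models that passed the filter through one species alone, with 1 higher and 2 lower for J-domain proteins, 2 higher and 1 lower for the other Clp subunits, 1 higher for CCT and prefoldin, and 1 higher for HSP20. J-domain proteins deliver clients to HSP70, and the share of them called stayed near the background. They gave 30 higher, 26 lower and 46 not called of 102 tested (median log2 change 0.07). Their summed level was 2792 to 2894 FPKM in clementine and 3371 to 3506 FPKM in kumquat, so a higher sum was not particular to the members. Ciclev10028531m, of the DnaJ subfamily A member 2 name, rose from a mean of 113 to 304 FPKM (log2 change 1.42), and Ciclev10019057m, of the DnaJ subfamily C member 7 name, fell from 25.1 to 10.1 FPKM (-1.23). Co-chaperones of HSP70 and HSP90 gave 17 higher, 5 lower and 18 not called of 40 tested (median 0.28). Their summed level was 1398 to 1499 FPKM in clementine and 1936 to 2140 FPKM in kumquat. Ciclev10031893m, of the FK506-binding protein 4/5 name, rose from 39.4 to 102 FPKM (1.35), and Ciclev10009375m fell from 21.9 to 10.1 FPKM (-1.06).

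The organelle partners gave smaller lists. GroES, the lid of GroEL, and GrpE, an exchange factor, gave 3 higher, 3 lower and 6 not called of 12 tested (median 0.02). Their summed levels overlapped between the species. The other Clp subunits, of the organelle protease, gave 14 higher, 5 lower and 12 not called of 31 (median 0.29). The Clp sum was 796 to 812 FPKM in clementine and 977 to 1027 FPKM in kumquat. In the Clp list Ciclev10032968m, named for the adaptor ClpS, rose from 36.2 to 82.8 FPKM (log2 change 1.16), and Ciclev10019480m, of the ClpX name, was at 6.39 and 0.273 FPKM (-2.55) and is the model that passed through clementine alone. Folding factors of the endoplasmic reticulum, where BiP works, had summed levels of 1841 to 1957 FPKM in clementine and 2291 to 2525 FPKM in kumquat. These factors gave 8 higher, 6 lower and 7 not called of 21 (median 0.00). Within them, 2 of 4 calreticulin-named models were higher and none lower, with Ciclev10011848m at 46.1 and 114 FPKM (1.28), whereas 4 of 8 protein disulfide-isomerase A1 models were lower and none higher, with Ciclev10033667m at 13.9 and 2.08 FPKM (-2.28).

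The cytosolic chaperonin CCT and prefoldin, which fold actin and tubulin, gave 7 higher, 4 lower and 16 not called of 27 (median -0.02). Their summed levels overlapped between the species. Ciclev10025299m, named CCT subunit gamma, rose from 26.0 to 56.8 FPKM (log2 change 1.16) while Ciclev10025301m of the same protein match fell (-4.17). Ciclev10025301m was at 26.3, 35.6 and 42.3 FPKM in clementine, and in kumquat at 6.39 FPKM in replicate 1 and listed at 0 in the others. Its log2 change was -5.13 without kumquat replicate 1. The summed level of the match was not called (log2 change -0.04, limma adjusted p = 0.554). HSP20 small heat shock proteins, which hold unfolded proteins without ATP, gave 11 higher, 18 lower and 11 not called of 40 (median -0.25). The HSP20 sum was 8045 to 9249 FPKM in clementine and 6498 to 7466 FPKM in kumquat. Ciclev10013046m fell from 883 to 208 FPKM (-2.08), and Ciclev10029495m rose from 26.3 to 292 FPKM (3.43). The models named for galactinol synthase, an enzyme of stress sugars, gave 2 higher, 1 lower and 1 not called of 4 tested, with Ciclev10005406m at 27.6 and 57.5 FPKM (1.03) and Ciclev10032043m at 5.60 and 2.24 FPKM (-1.05).

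**Figure D5:**
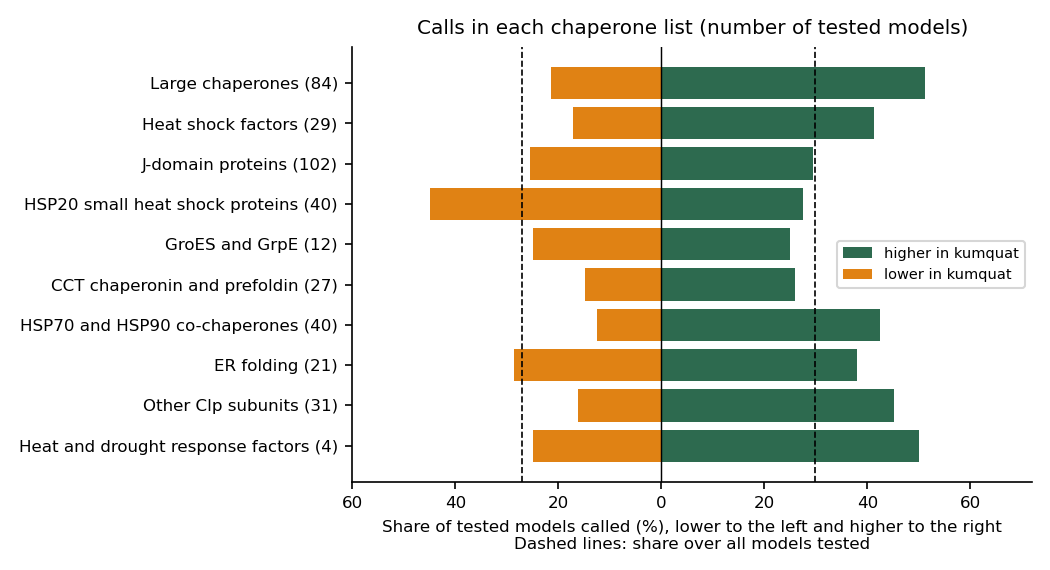
Share of tested models called higher (right) and lower (left) in kumquat for the large chaperones, HSFs and each partner list, with the number tested in brackets. Dashed lines mark the share over all models tested, 29.9% higher and 27.1% lower, and the HSP20 list is the one with the longest bar to the left.

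Markers of fruit tissues were counted in the same fit. Of 60 photosynthesis-named models tested, 7 were higher and 31 lower in kumquat, with summed levels of 12672 to 13954 FPKM in clementine and 10981 to 12344 FPKM in kumquat. Cellulose synthase A models gave 4 higher and 20 lower of 34, with sums of 1091 to 1155 and 843 to 914 FPKM. Of these calls, 1 higher and 8 lower were of models that passed the filter through one species alone, as was 1 lower call among the photosynthesis models. The seed list was picked by the Gene Ontology term nutrient reservoir activity or by seed protein names, and its 3 models have no KEGG name. All 3 were higher, with sums of 644 to 808 FPKM and 2468 to 2971 FPKM, and none of these was at 0. Most of these sums came from Ciclev10006308m, at means of 701 and 2618 FPKM. Ciclev10006308m shares its protein match with Ciclev10006365m, another model of the list. Whether the 3 models mark seed was not tested. In the photosynthesis list 1 model was listed at 0 in clementine and 4 in kumquat, and in the cellulose synthase list 4 and 3 were. The part of tissue makeup in the chaperone results was not tested.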

How the data were processed

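The authors deposited 1 table of FPKM values for 30139 gene models in 6 libraries, with protein match, Gene Ontology and KEGG orthology text. Per the submitters' processing notes HISAT, StringTie and DESeq2 were used; their versions and roles and the genome build were not given in the sources used here. No counts were used, so absolute depth is unknown. A rough estimate of relative depth from the spacing of low FPKM values set clementine replicate 2 at 1. On that scale clementine replicates 1 and 3 were at 0.961 and 1, and the kumquat libraries at 0.869 to 0.923. The effect of this on models near 0 was not tested. Summed FPKM was 691560 to 707892 per library, and 25523 to 26285 models were above 0. No chromosome positions or sequences were used here.

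FPKM is no count, so log2(FPKM + 1) was fitted with limma 3.58.1 (R 4.3.3), with a mean-dependent prior, species as the only term, and models of at least 1 FPKM in at least 3 libraries. Fold changes on this scale understate those of low models. P-values are two-sided, with Benjamini-Hochberg adjustment over 22050 models, called at 0.05. The steps were tested on simulated data. Alternatives were the pseudocount, the filter, median scaling, replicate number, each library left out, matches summed and the naming rule.

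Members and lists were chosen with earlier results of these data known. Named within each family were the most abundant member, the most abundant called at least 2-fold each way, the largest rise and fall at 10 FPKM or more in the higher species, members listed at 0 in one species with at least 5 FPKM in the other, and, per partner list, the most abundant called at least 2-fold each way. Opposed models of one match were named too. Ciclev10030928m, Ciclev10011260m, Ciclev10003758m, Ciclev10028007m, Ciclev10033341m, Ciclev10028085m, Ciclev10026273m, Ciclev10006040m, Ciclev10008618m and the models named 90kDa beta fall outside this rule and were chosen after their values were seen.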

Additional observations from a re-analysis of the deposited data

How the results depend on the processing

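Members called higher numbered 55 and lower 23. Leaving out 1 library at a time gave 52 to 55 higher and 18 to 21 lower, and no other alternative moved either count by more than 1.5 times. Without the filter 58 and 21 were called, at a minimum of 5 FPKM 43 and 16, and with any KEGG entry in place of the first 57 and 27. Counts without models that passed the filter through one species (48 higher and 19 lower), over members of at least 10 FPKM, and over chaperones with the nucleotide-binding term, were added after seeing the data. Over the libraries left out the last 2 were 34 to 36 higher and 11 to 13 lower, and 19 to 21 higher and 4 to 5 lower. Ciclev10018768m changed sign when models of its match were summed (log2 change 0.00067), as did Ciclev10025299m (-0.04477). Ciclev10024883m changed sign under median scaling (-0.00477) and without kumquat replicate 1, with a range of -0.01533 to 0.07692 over the libraries left out in turn. None of these was called in those settings, and the cause was not tested.

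Libraries of the same replicate number deviated together only weakly (correlations of 0.119, 0.0424 and 0.0657). Those of different numbers gave -0.0779 to 0.0211, all below the same-number values. Whether the numbers pair the samples was not tested, and the main fit treats the libraries as unpaired. A fit with the replicate block called 54 members higher and 23 lower, and 6772 and 6172 of all models against 6602 and 5980.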

Other observations

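A further 12 models carry a chaperone name only behind another KEGG name, most often HtpG behind a chromatin remodelling name, and were not counted as members. Ciclev10028237m was at 13.1, 15.7 and 12.1 FPKM in clementine and at 9.24, 7.36 and 8.79 FPKM in kumquat (log2 change -0.63, limma adjusted p = 0.00531). Ciclev10028466m was at 6.48, 6.30 and 5.52 FPKM in clementine and at 12.4, 10.3 and 10.1 FPKM in kumquat (log2 change 0.74, limma adjusted p = 0.0019). Both were chosen after their values were seen.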
